A study of Mus musculus with 5 samples.

Results

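The 42 genes described here lie around Gabbr1 on mouse chromosome 17 and are not members of the major histocompatibility complex (MHC) families. They were chosen by position, as a list of named genes near Gabbr1, out of 39056 genes in the count table, and they are ordered by the gap between each gene and Gabbr1. All 42 were found in the table. 41 lie at lower coordinates than Gabbr1, out to Notch4 at a gap of 2457.5 kb, and Ubd alone lies at higher coordinates. 35 of the 42 passed the low-count filter and were tested, and 7 did not.

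The RNA was that of blood stem and progenitor cells of the bone marrow, sorted as the LSK population (negative for lineage markers, positive for Sca-1 and Kit), about 12000 cells per library, from mice at postnatal day 15 on a C57BL/6 background. The groups were wild type (WT, 2 libraries) and Gabbr1 null (3 libraries), and no treatment is named for either. Gabbr1 encodes a subunit of the metabotropic GABA-B receptor, and the comparison asks what its loss does to gene expression in these cells. How the null allele was made and which part of the gene it lacks is not stated in the labels. The labels differ on the number of animals: the series design gives 2 WT and 3 null, the number of libraries, and the extraction protocol gives 4 per genotype. Whether each library was 1 animal is therefore unclear, and a p-value here reflects only how far these libraries vary, which may be technical.

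This stretch of chromosome 17 is the mouse counterpart of the human MHC region, in which antigen presentation genes are interleaved with densely packed genes of other functions. Among the latter are housekeeping genes for transcription, RNA processing and protein quality control, a cluster of tumour necrosis factor genes, and tripartite motif (TRIM) ubiquitin ligases. Because they are neighbours on the chromosome, alleles of these genes are usually inherited together with the allele at Gabbr1.

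Total counts were 6972753 to 8150774 per library, so 1 count stood for 0.123 to 0.142 CPM (counts scaled to library size, with TMM factors). Null library 1 had 22532 Xist counts and 0 counts over 4 Y-linked genes, and the remaining 4 had at most 21 Xist and at least 1140 Y-linked counts. The sort markers Kit and Ly6a were read in all 5 libraries, and neither passed the test between genotypes. Of 12 B lineage markers, 12 rose in null, and they summed to 83.3 to 197 CPM in WT against 641 to 1142 CPM in null. Of 12 endothelial and stromal markers 7 rose, with sums of 237 to 267 CPM in WT against 353 to 467 CPM in null. Of 10 neutrophil markers 8 were tested and 0 passed, with 7 higher at an unadjusted p under 0.05; they summed to 108 to 146 CPM in WT and to 2213, 591 and 135 CPM in null libraries 1, 2 and 3, so that null library 1 stood apart and null library 3 lay in the WT range. In bulk RNA, fewer cells of a type and less RNA per cell cannot be told apart.

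Gabbr1 itself (ENSMUSG00000024462.17, chromosome 17, 37045966 to 37075067, plus strand, mm10) had 49.5 and 57.4 CPM in the WT libraries and 38.5, 34.8 and 33.0 CPM in the null libraries. All null libraries were below both WT libraries, and the log2 fold change of null over WT was -0.59 ± 0.13 (SE, adjusted p = 0.0361 in edgeR). Gabbr1 did not pass when WT library 1 or 2 was left out (edgeR adjusted p = 0.0722 and 0.38), nor when null library 2 or 3 was (0.0802 and 0.137). H2-Ea, an MHC class II gene whose C57BL/6 allele makes no transcript and which the annotation names H2-Ea-ps, was listed at 0 counts in all 5 libraries.

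No gene of the 42 passed the test between genotypes. Of 35 tested, 0 were higher and 0 lower at an edgeR adjusted p under 0.05, where 2.15% of all 13467 tested genes were higher and 0.334% lower (2.48% in all). DESeq2 and limma-voom also called 0. At an unadjusted p under 0.05 there were 4 genes, 2 higher (Notch4 and Neu1) and 2 lower (Atat1 and Ltb). That is 11.4% of the members tested, near the 12.8% of all genes tested, of which 7.99% were higher and 4.84% lower. The library values of the groups did not overlap for 12 members, 4 higher and 8 lower in null, or 34.3% against 29.2% of all tested genes, of which 15.5% were higher and 13.7% lower.

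Most differences were small. The median log2 fold change of the 35 tested members was -0.10, with quartiles of -0.18 and 0.02, beside -0.00 for all tested genes and -0.05 for the 536 tested protein-coding genes of the rest of chromosome 17. 22 members were negative and 13 positive, and 32 lay within 0.5 of 0 on the log2 scale. The 95% interval of the fold change lay inside a 2-fold difference in either direction for 32 of 35 members and inside 1.5-fold for 27. The intervals of Zfp57, Notch4 and Neu1 reached beyond 2-fold.

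The small negative median also varied within WT. Relative to the WT mean, the median of the tested members on the log2 scale was -0.07 in WT library 1 and 0.07 in WT library 2, and -0.06, -0.14 and -0.07 in null libraries 1, 2 and 3. The null medians of libraries 1 and 3 were thus at the level of WT library 1. The 2 WT medians mirror each other because each was taken against their own mean. They are 1 observation of the spread within WT. Over all genes, the 5 medians were -0.00 to 0.01. 22 of the 35 members were higher in WT library 2 than in WT library 1. Without WT library 2 the members' median was -0.02, and without WT library 1 it was -0.15.

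**Figure D1:**
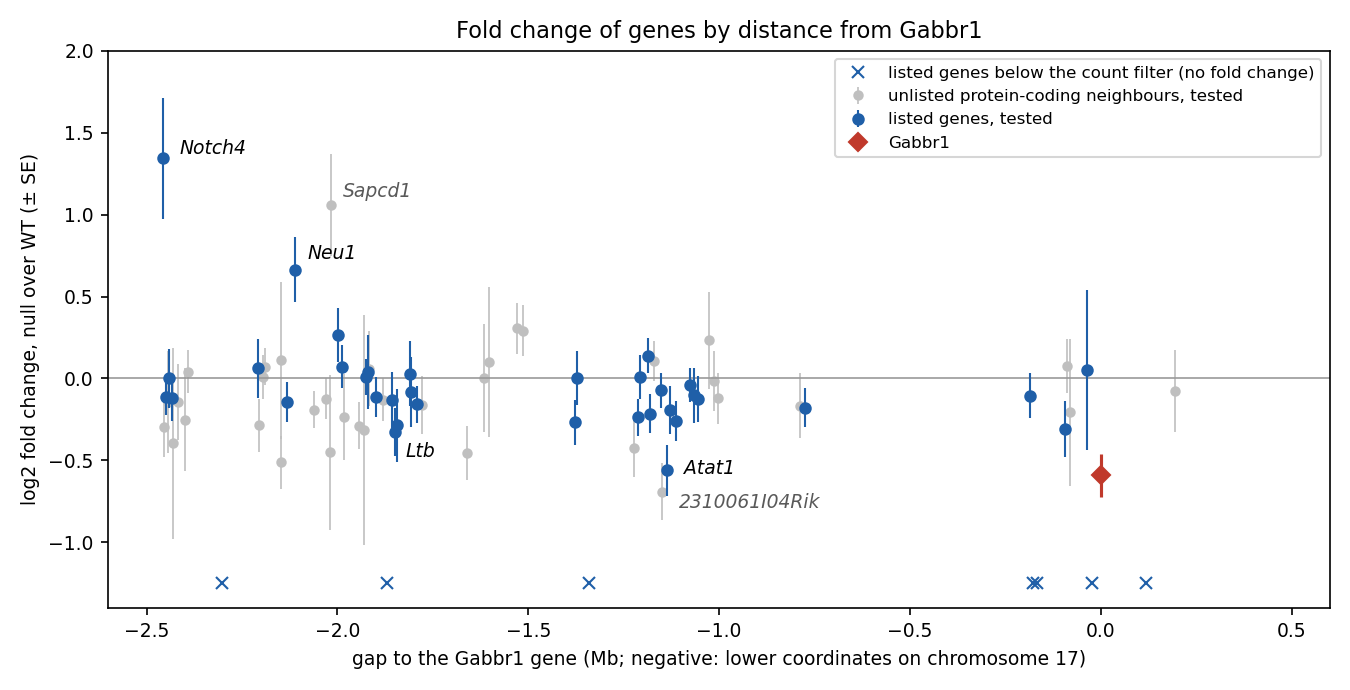
Log2 fold change of null over WT (vertical axis, bars are SE) against the gap to Gabbr1 in Mb (horizontal axis) for the 35 tested members (blue), the 36 tested protein-coding neighbours outside the list (grey) and Gabbr1 (red diamond); crosses mark the 7 members below the count filter. Gabbr1 lies at -0.59, while the tested members nearest to it lie between -0.31 and 0.05.

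No tested gene near Gabbr1 passed. Within 250 kb of it lie 7 members, of which Zfp57, Ppp1r11 and Trim26 were tested. Zfp57, a KRAB zinc finger protein that protects DNA methylation at imprinted genes, starts the tested list at a gap of 35.3 kb. It had 29 and 21 counts in WT and 12, 43 and 24 in null, so that the null libraries lay on both sides of WT, with a log2 fold change of 0.05 ± 0.49 (SE, adjusted p = 0.983 in edgeR). Among its partners in imprint maintenance, 5 of 6 were tested and 0 passed in either direction. Trim28, the co-repressor that it recruits, differed by -0.11 ± 0.13 on the log2 scale (SE), and Dppa3 had 0 counts in all libraries.

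Ppp1r11, an inhibitory subunit of protein phosphatase 1, lies 94.2 kb from Gabbr1. It had 32.7 and 36.0 CPM in WT against 29.3, 22.2 and 31.7 CPM in null. The groups did not overlap, but the log2 fold change of -0.31 ± 0.17 (SE) did not pass (edgeR adjusted p = 0.496).

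Of the TRIM ubiquitin ligases, Trim26 (186.6 kb from Gabbr1) had 39.9 and 50.3 CPM in WT against 43.7, 38.8 and 43.0 CPM in null. Null library 2 was below both WT libraries and the other null libraries lay between them, and its log2 fold change was -0.10 ± 0.14 (SE, adjusted p = 0.833 in edgeR). Trim39, at 773.7 kb, had 52.7 and 49.99 CPM in WT against 46.5, 46.6 and 43.2 CPM in null, a log2 fold change of -0.18 ± 0.12 (SE, adjusted p = 0.591 in edgeR). All 3 null values of Trim39 were below both WT values. Trim10, known from erythroid cells, had 1 and 0 counts in WT and 11, 4 and 2 in null, a ratio of 11.1 with a counting interval (95%, exact) of 1.74 to 464. The summed level of mature erythroid markers had the same order in null: 0.985 and 1.28 CPM in WT against 35.2, 7.92 and 1.97 CPM in null libraries 1, 2 and 3. Their part in the Trim10 counts was not tested. Trim15 had 0 counts in every library.

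The other members below the filter were Mog, Ubd, Ddr1, Aif1 and C4b. Mog, the myelin oligodendrocyte glycoprotein and the member nearest Gabbr1 (22.6 kb), had 0 counts in every library, which allows up to 0.369 to 0.427 CPM at 3 counts per library. Of 6 oligodendrocyte and myelin genes, Mag and Olig2 were at 0 in all libraries, 3 were tested and 0 passed, and the list summed to 169.5 to 197.8 CPM per library. Ubd, a ubiquitin-like modifier induced by inflammatory cytokines, had 0 counts in WT and 0, 2 and 1 in null. Ddr1, a collagen receptor kinase of epithelia, had at most 3 counts per library. C4b, a complement component, likewise had at most 3. Aif1, a marker of macrophages, had 2 and 7 counts in WT and 15, 1 and 7 in null, so the null libraries spanned the WT range. Markers of monocytes, macrophages and dendritic cells summed to 26.5 and 34.7 CPM in WT against 76.2, 49.0 and 34.6 CPM in null, highest in the library with most Aif1 counts, and their part in Aif1 was not tested.

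Promoter windows were compared between members that passed the low-count filter and members below it, of which Mog and Trim15 alone had no count. RefSeq windows (GRCm38.p6, the assembly of mm10, 250 bases before to 50 after a start) were found for 37 of 42 members. The window nearest the annotated gene start was taken. Its RefSeq start was farthest from the annotated start for Agpat1, Gpank1 and Atp6v1g2 (1599, 1497 and 1350 bases). Pbx2, Prr3 and Ppp1r10 followed (993, 941 and 762 bases), so these windows do not cover the annotated start. The windows of Clic1 (277 bases), Ppp1r11 and Mrps18b (51 bases each) also do not cover it. The CpG ratio, observed over expected CpG dinucleotides, had a median of 0.38 over 32851 windows of all genes. Those windows hold several for some genes and were not limited to genes past the filter, whereas each member had 1. The ratio was 0.76 in 31 tested members (0.21 to 1.16) and 0.13 in 6 members below the filter (0 to 0.39). The windows below, 5′ to 3′ with each CpG in capitals, are those of the most abundant member, a member with no counts, and the 4 members with an unadjusted p under 0.05.
Tubb5 (chr17:35838252-35838551, minus strand): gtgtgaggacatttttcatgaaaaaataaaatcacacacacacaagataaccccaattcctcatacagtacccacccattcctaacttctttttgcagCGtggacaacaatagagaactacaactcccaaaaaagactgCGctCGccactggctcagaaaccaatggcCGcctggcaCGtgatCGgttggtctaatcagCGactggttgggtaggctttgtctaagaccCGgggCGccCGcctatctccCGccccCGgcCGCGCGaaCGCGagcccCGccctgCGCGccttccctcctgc
Mog (chr17:37023349-37023648, minus strand): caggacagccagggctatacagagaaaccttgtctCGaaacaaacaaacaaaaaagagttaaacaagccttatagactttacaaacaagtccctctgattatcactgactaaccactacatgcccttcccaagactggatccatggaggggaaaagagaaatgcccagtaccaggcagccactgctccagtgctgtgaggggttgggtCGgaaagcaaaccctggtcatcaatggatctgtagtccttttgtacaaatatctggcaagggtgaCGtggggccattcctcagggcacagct
Neu1 (chr17:34931003-34931302, plus strand): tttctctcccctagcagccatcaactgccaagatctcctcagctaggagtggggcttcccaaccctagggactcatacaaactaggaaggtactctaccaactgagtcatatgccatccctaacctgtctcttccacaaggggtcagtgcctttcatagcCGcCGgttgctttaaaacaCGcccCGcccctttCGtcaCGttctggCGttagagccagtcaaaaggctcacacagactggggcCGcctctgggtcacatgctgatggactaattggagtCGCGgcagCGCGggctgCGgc
Atat1 (chr17:35910026-35910325, minus strand): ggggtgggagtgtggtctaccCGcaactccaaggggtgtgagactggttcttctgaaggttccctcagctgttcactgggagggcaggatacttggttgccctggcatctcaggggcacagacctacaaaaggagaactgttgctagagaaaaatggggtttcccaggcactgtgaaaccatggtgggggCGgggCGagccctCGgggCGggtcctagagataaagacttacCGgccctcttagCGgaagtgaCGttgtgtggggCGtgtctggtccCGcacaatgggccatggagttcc
Ltb (chr17:35194257-35194556, plus strand): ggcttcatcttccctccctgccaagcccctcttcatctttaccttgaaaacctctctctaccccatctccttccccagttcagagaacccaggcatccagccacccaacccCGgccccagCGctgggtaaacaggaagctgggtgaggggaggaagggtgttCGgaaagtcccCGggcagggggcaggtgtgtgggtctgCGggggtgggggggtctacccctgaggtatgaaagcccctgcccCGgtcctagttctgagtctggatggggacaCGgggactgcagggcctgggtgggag
Notch4 (chr17:34564045-34564344, plus strand): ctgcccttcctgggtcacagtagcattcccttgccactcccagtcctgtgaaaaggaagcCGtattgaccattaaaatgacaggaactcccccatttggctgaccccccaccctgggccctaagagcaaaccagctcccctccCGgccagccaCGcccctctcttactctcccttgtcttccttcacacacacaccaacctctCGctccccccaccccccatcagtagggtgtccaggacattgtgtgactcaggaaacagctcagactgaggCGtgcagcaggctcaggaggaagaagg

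The Tubb5 window held 20 CpG dinucleotides and the Mog window 3. The windows of Neu1, Atat1, Ltb and Notch4 held 13, 10, 7 and 5. Across 37 members the CpG ratio and the mean level per kb had a Spearman rho of 0.67, and across the 31 tested 0.49; these points share the same 5 libraries and differ in base composition. The letters GGGCGG, read on both strands, were in 19 of 31 tested members' windows and 1 of 6 windows below the filter, and in 35.7% of all windows. TATAAA was in 3 of 37 windows, Zfp57, Tnf and Ppp1r10, and in 13.6% of all windows, and CACGTG in 5 of 37 and 7.15%. CCAAT was in 12 of 37 and 37.4%. A match is a description of these letters, and no factor was measured.

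Levels spanned a wide range between neighbours. Per kb of exon, Tubb5, the main beta tubulin of dividing cells, had 903 CPM per kb in WT and 909 CPM per kb in null. Clic1, a chloride channel protein, followed with 133 and 140 CPM per kb, and Ddx39b, an RNA helicase of mRNA export, with 144 and 129 CPM per kb. The library values of these 2 genes per kb overlapped each other, so their order is not separated by the spread. Lst1, a leukocyte transcript, had 66.7 and 60.9 CPM per kb, and Csnk2b, the regulatory subunit of casein kinase 2, had 49.4 and 49.6 CPM per kb. At the lower end of the tested members, Zfp57 had 0.866 and 0.901 CPM per kb and Notch4 0.259 and 0.664 CPM per kb. The order rests on exon length: by CPM alone, 3 of these 5 most abundant genes remained among the first 5.

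**Figure D2:**
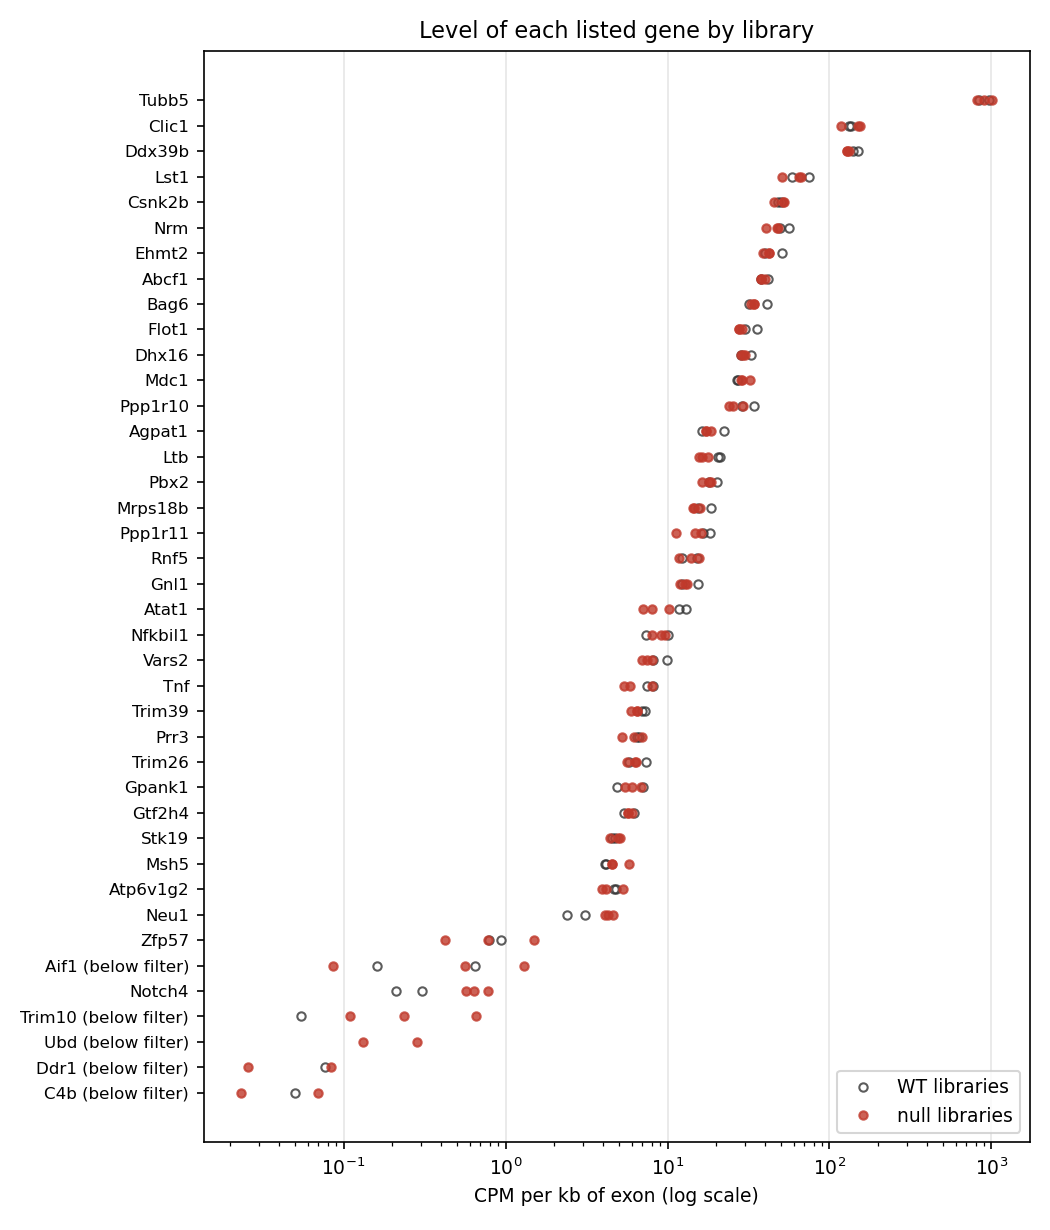
CPM per kb of exon (horizontal axis, log scale) in each library for the 40 listed genes with a count, ordered by mean level; open circles are the 2 WT and filled circles the 3 null libraries, and libraries at 0 are not drawn. Tubb5 stands apart at 903 (WT) and 909 (null) CPM per kb, and the genotypes lie close together for most genes.

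None of the 5 most abundant members passed. Tubb5 had 2795 and 3217 CPM in WT against 2990, 2717 and 3361 CPM in null, with the null values on both sides of WT and a log2 fold change of 0.01 ± 0.13 (SE). Its neighbour in function Tubb4b, elsewhere in the genome, had a difference of -0.01 ± 0.13 on the same scale, and 0 of 4 other beta tubulins tested passed. Clic1 had 244.2 and 235.7 CPM in WT against 269, 211 and 277 CPM in null, and Csnk2b 104.1 and 99.97 CPM in WT against 106, 93.4 and 108 CPM in null. Both overlapped between genotypes, as did Lst1, at 30.9 and 24.5 CPM in WT against 27.8, 21.2 and 26.8 CPM in null. Ddx39b was the exception in overlap: it had 525 and 568 CPM in WT against 484, 483 and 501 CPM in null, a log2 fold change of -0.16 ± 0.12 (SE, adjusted p = 0.634 in edgeR). Of 11 other tested genes of mRNA export 0 passed.

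The genes of transcription, RNA processing and translation gave no call. All 9 were tested, and 0 passed at an adjusted or an unadjusted p under 0.05. Their log2 fold change was negative in 8 of 9, beside 62.9% of all tested members and 50.8% of all tested genes, and this difference was not tested. Ppp1r10, which targets protein phosphatase 1 to chromatin, had 161.8 and 191.7 CPM in WT against 165.4, 142.5 and 134.9 CPM in null, a log2 fold change of -0.26 ± 0.12 (SE, adjusted p = 0.407 in edgeR). Vars2, the mitochondrial valyl-tRNA synthetase, had 44.2 and 54.5 CPM in WT against 40.8, 43.8 and 38.2 CPM in null, a difference of -0.27 ± 0.14. Its null values were all below WT, whereas Ppp1r10 in null library 1 lay inside the WT range. Gtf2h4, a subunit of the repair and transcription factor TFIIH, differed by 0.00 ± 0.17. Mrps18b, a mitochondrial ribosomal protein, differed by -0.19 ± 0.15, the helicase Dhx16 by -0.07 ± 0.11, the translation factor Abcf1 by -0.04 ± 0.10, the GTPase Gnl1 by -0.13 ± 0.14 and Prr3 by -0.10 ± 0.17 (log2 fold change, SE). Among their partners elsewhere, 0 of 28 mitochondrial small ribosomal subunit genes, 0 of 9 TFIIH subunits and 0 of 5 phosphatase complex genes passed.

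Several members start close to another member. In 4 pairs of members the annotated starts lie within 1 kb on opposite strands. Mrps18b and Ppp1r10 start 45 bases apart and had -0.19 and -0.26. Prr3 and Gnl1, whose first exons overlap, had -0.10 and -0.13. Csnk2b and Gpank1, whose exons also overlap, had 0.01 and 0.04, and Rnf5 and Agpat1 had 0.00 and -0.12. Each difference within a pair was smaller than the SE of its members. All tested members lay close together, with quartiles of -0.18 and 0.02, and pairs were not compared with members outside them. Exons of 16 members overlap another gene, 13 of them on the opposite strand, and without a known strand setting shared reads could not be assigned.

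Genes of the nucleus, DNA repair and chromatin showed no call among 6 tested. Mdc1, the scaffold of the DNA double-strand break response, had 202 and 199.8 CPM in WT against 214, 239 and 212 CPM in null, all above WT, with a log2 fold change of 0.14 ± 0.11 (SE, adjusted p = 0.661 in edgeR). Msh5, a MutS homologue of meiotic recombination, had 22.8 and 22.9 CPM in WT against 25.2, 32.1 and 25.2 CPM in null, a difference of 0.27 ± 0.17. These 2 genes were the only ones of the group whose null libraries all exceeded WT. Nrm, an inner nuclear membrane protein, differed by -0.21 ± 0.12 with all null libraries below WT. Ehmt2, which encodes the histone methyltransferase G9a, differed by -0.14 ± 0.12, Stk19 by 0.06 ± 0.18 and Gpank1 by 0.04 ± 0.23. Of 9 tested partners of Mdc1 0 passed, and the histone gene H2afx was the nearest to it. H2afx was called higher in DESeq2 (adjusted p = 0.00086) and limma-voom (adjusted p = 0.0378). In edgeR it was higher with no low-count filter (adjusted p = 0.00394) and without null library 2 (adjusted p = 0.0193).

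Atat1, the acetyltransferase of alpha tubulin, had the lowest fold change of the members. It had 53.9 and 59.8 CPM in WT against 36.6, 46.7 and 32.3 CPM in null, so all null libraries were below both WT libraries. The log2 fold change was -0.56 ± 0.16 (SE, 95% interval -0.90 to -0.22), close in size to that of Gabbr1, and it did not pass (edgeR adjusted p = 0.0984). It passed without null library 2 (adjusted p = 0.0193), the null library with its highest level, and with no low-count filter (adjusted p = 0.00454), and over 14 fits the adjusted p was 0.00454 to 0.559. Atat1 lies 1136 kb from Gabbr1. Of its flanks, Dhx16, Mrps18b and Ppp1r10 differed by -0.26 to -0.07, while 2310061I04Rik, an unlisted gene between Dhx16 and Atat1 that was named after its values were seen, had -0.69 ± 0.17 (SE, adjusted p = 0.0624 in edgeR). That gene passed with no low-count filter (adjusted p = 0.0125). It had 186 and 203 counts in WT and 117, 131 and 123 in null. Exons of an antisense transcript, Gm16279, overlap 14.0% of the exon length of Atat1.

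Other cytoskeletal and membrane members gave no call. Flot1, a scaffold of membrane microdomains, had 87.0 and 104 CPM in WT against 80.1, 80.0 and 82.9 CPM in null, a log2 fold change of -0.24 ± 0.11 (SE, adjusted p = 0.407 in edgeR) with groups that did not overlap. Atp6v1g2, a subunit of the vacuolar proton pump, differed by -0.08 ± 0.21, and 0 of 8 other subunits passed.

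In the tumour necrosis factor cluster, Ltb was lower without a call. Ltb, which encodes lymphotoxin beta, a membrane ligand that anchors lymphotoxin on lymphoid cells, had 31.3 and 31.8 CPM in WT against 27.0, 23.6 and 24.7 CPM in null. The groups did not overlap, and the log2 fold change was -0.33 ± 0.15 (SE, 95% interval -0.65 to -0.01, edgeR adjusted p = 0.371). Tnf, the inflammatory cytokine next to it, had 12.3 and 13.4 CPM in WT against 9.59, 8.84 and 13.1 CPM in null, with null library 3 inside the WT range and a difference of -0.29 ± 0.22. Nfkbil1, an I-kappa-B-like protein, differed by 0.03 ± 0.20 and Lst1 by -0.13 ± 0.17. B lineage markers summed to 83.3 to 197 CPM in WT and 641 to 1142 CPM in null. The part of these cells in the levels of Ltb and Tnf was not tested.

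Downstream of these ligands, 13 of 14 listed receptor and signalling genes outside the members were tested, and 1 fell and 0 rose, where 0.334% of all genes were lower. Nfkb2, a subunit of the non-canonical NF-kappa-B pathway that the lymphotoxin receptor uses, fell in CPM to a null mean of 31.1 ± 1.58 (SD, n = 3) against 47.5 ± 5.17 in WT (SD, n = 2). Its log2 fold change was -0.61 ± 0.13 (SE, adjusted p = 0.0349 in edgeR). Its partner Relb had -0.79 ± 0.19 (SE, adjusted p = 0.057 in edgeR), and Ltbr, the receptor, had -0.07 ± 0.16. Relb passed with no low-count filter (edgeR adjusted p = 0.0105). Nfkb2 did not pass when WT library 1 or 2 was left out (edgeR adjusted p = 0.0686 and 0.359), nor when null library 2 or 3 was (0.0849 and 0.11).

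Neu1, the lysosomal sialidase, lies 2110 kb from Gabbr1 and was among the members with higher values in null. It had 8.98 and 11.5 CPM in WT against 17.3, 15.3 and 16.0 CPM in null, with every null library above both WT libraries. The log2 fold change was 0.66 ± 0.20 (SE, 95% interval 0.23 to 1.10) without passing (edgeR adjusted p = 0.135). Over all 14 fits the adjusted p was 0.0898 to 0.335. Its partners in the lysosomal complex gave no call: Ctsa differed by 0.02 ± 0.11, Glb1 by -0.22 ± 0.13 and Galns by -0.07 ± 0.16. Bag6, a chaperone of tail-anchored proteins, differed by -0.11 ± 0.12, and the ubiquitin ligase Rnf5 by 0.00 ± 0.18. Agpat1, an enzyme of phospholipid synthesis, had 48.7 and 66.8 CPM in the WT libraries, which was a wider gap than among the null libraries (51.5 to 55.7 CPM). Gpank1 and Notch4 were the other tested members with the widest gaps between the WT libraries.

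Notch4, a Notch receptor of endothelial cells and the outermost member, had the largest positive fold change. It had 20 and 12 counts in WT and 47, 35 and 42 in null, or 2.46 and 1.71 CPM against 6.26, 4.62 and 5.18 CPM. Every null library was above both WT libraries. The log2 fold change was 1.34 ± 0.37 (SE, 95% interval 0.54 to 2.15), which did not pass (edgeR adjusted p = 0.0943). Over 14 fits the adjusted p was 0.0249 to 0.542, and it passed with no low-count filter alone.

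Endothelial and stromal markers summed higher in every null library than in WT, as did Notch4, though libraries within a group were ordered differently. They summed to 237 and 267 CPM in WT against 460, 467 and 353 CPM in null libraries 1, 2 and 3. Cdh5, the cadherin of endothelial junctions, had 5 and 12 counts in WT and 160, 130 and 164 in null, while Tek and Emcn differed by 0.08 ± 0.18 and -0.00 ± 0.16 on the log2 scale. No marker of this list was at 0 in all libraries. The part of these cells in the Notch4 level was not tested.

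The rest of the Notch pathway gave no call. Of 13 other listed genes 10 were tested, 0 passed. Unadjusted edgeR p-values under 0.05 were found for 2, both higher, where 7.99% of all tested genes were higher at that threshold. The target Hes1 had 22 and 56 counts in WT and 106, 64 and 89 in null. The ligand Jag1 had 7 and 7 in WT and 16, 16 and 18 in null. Hes1 passed with no low-count filter (edgeR adjusted p = 0.00445). The receptors Notch1 and Notch2 differed by 0.01 ± 0.15 and -0.13 ± 0.14 (log2 fold change, SE). Notch4 was thus a small share of Notch transcripts: per kb it was 0.502 CPM beside 45.4 CPM for Notch1 and 56.2 CPM for Notch2. Pbx2, a homeodomain partner of Hox and Meis proteins and the other cell fate gene, had 65.8 and 73.1 CPM in WT against 67.4, 59.5 and 66.0 CPM in null, a difference of -0.11 ± 0.11, and 0 of 5 tested partners passed.

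**Figure D3:**
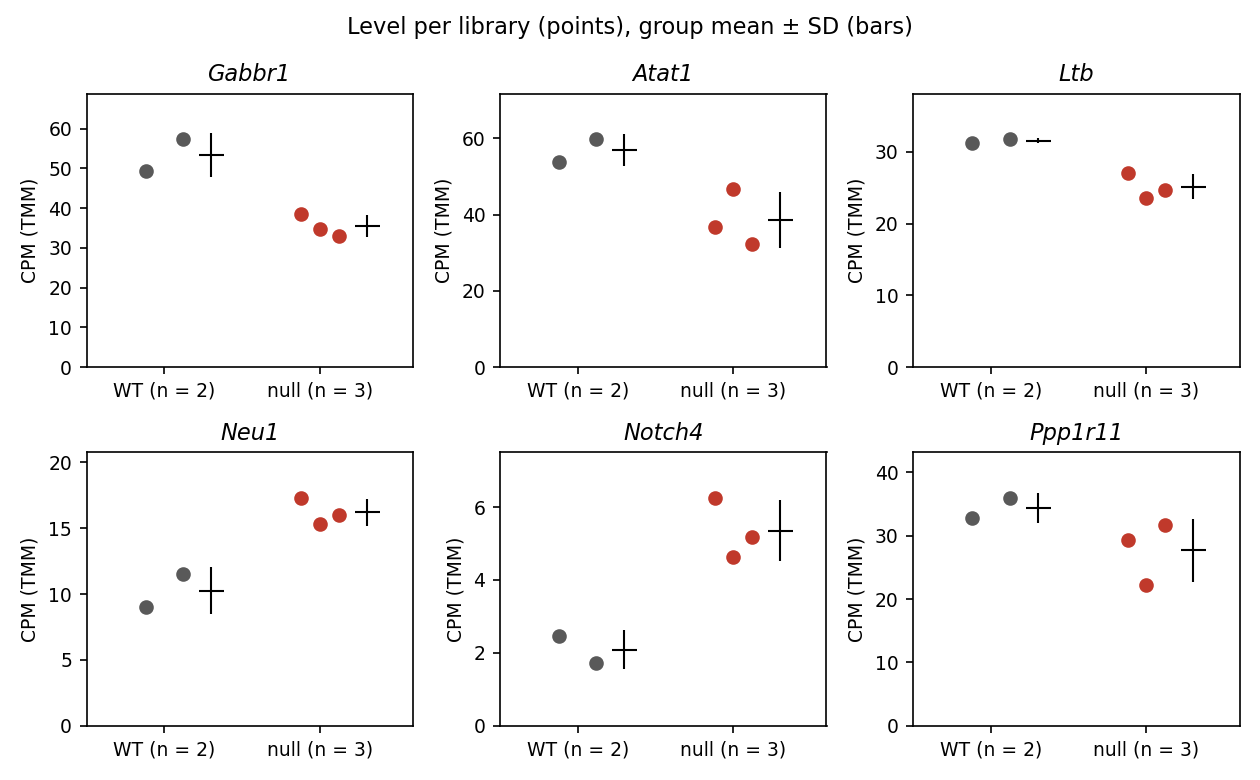
TMM-scaled CPM in each library (points) with group mean ± SD (bars) for Gabbr1, the 4 members with an unadjusted p under 0.05, and Ppp1r11; vertical axes start at 0. In all 6 panels the null libraries lie wholly above or below WT, and only Gabbr1 passed the test.

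Protein-coding neighbours outside the list, within the same 2457.5 kb of Gabbr1 on either side, gave no call either. There were 142, of which 36 were tested, and 49 were olfactory receptor genes with none tested. 0 of the 36 passed, among them 8 MHC (H2) genes, and 5 (13.9%) had an unadjusted p under 0.05, 1 higher and 4 lower. That is near the 12.8% of all tested genes, of which 7.99% were higher and 4.84% lower. The median log2 fold change of these neighbours was -0.14, and 23 (63.9%) were negative, beside 50.8% of all tested genes. The higher one, Sapcd1, next to Msh5 and named after its values were seen, had 1.06 ± 0.31 (SE, adjusted p = 0.126 in edgeR). Gabbr1 was the only protein-coding gene tested in this interval that passed. H2-Q4, a class I gene named after its values were seen, was lower by -0.46 ± 0.17 on the log2 scale without passing. It passed in edgeR with sex as a covariate (adjusted p = 0.0232) and without null library 1 (adjusted p = 0.0246). These fits are nearly the same, since null library 1 was the only library without Y-linked counts. H2-Q4 also passed with no low-count filter (edgeR adjusted p = 0.0089). In the rest of chromosome 17, 11 protein-coding genes were higher and 5 lower among 536 tested. Of all tested genes 2.15% were higher and 0.334% lower. The difference between members and other genes was not tested, since the members are neighbours and not replicates.

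By distance, the 3 tested members within 500 kb of Gabbr1 had a median log2 fold change of -0.10, the 14 between 500 kb and 1.5 Mb -0.15, and the 18 beyond 1.5 Mb -0.04. Of the 4 members with an unadjusted p under 0.05, 0 were in the nearest class, 1 in the middle class and 3 in the farthest. The middle class thus had the lowest median and the farthest class the one nearest 0.

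**Figure D4:**
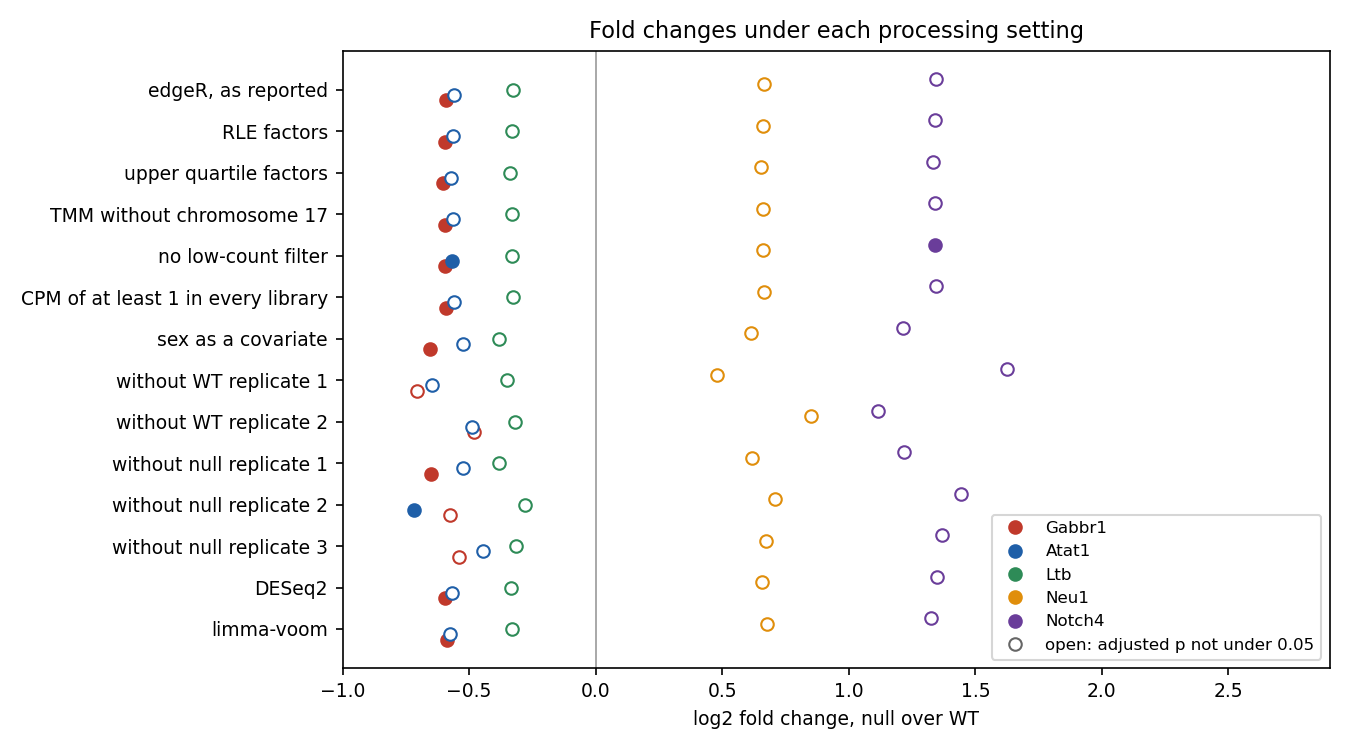
Log2 fold change of null over WT (horizontal axis) for Gabbr1 and the 4 members with an unadjusted p under 0.05 under each processing setting (vertical axis); filled points have an adjusted p under 0.05. No gene changes side of 0, and Atat1 is filled in 2 settings and Notch4 in 1.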

How the data were processed

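RNA of LSK cells was read in 5 libraries (2 WT, 3 Gabbr1 null). Per the labels' protocols, libraries were made from 3.6 to 5 ng of RNA with mouse depletion probes. STAR, featureCounts and mm10 are named per the submitters' processing notes. For tool versions, annotation release, strand and multi-mapped reads, nothing was found: they are not given in the labels or notes. The deposited values are counts per gene in whole numbers, not normalized. 99.5% of 39056 identifiers matched GENCODE M21 with versions ignored.

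Genes were filtered with filterByExpr by group (13467 kept), scaled by TMM, and compared by quasi-likelihood F tests in edgeR 4.0.16 (R 4.3.3; genotype only, 3 residual degrees of freedom), with Benjamini-Hochberg adjustment over all tested genes and 0.05 as threshold. SEs come from the F statistic. Levels per kb use the union of exons. The members and lists were chosen with earlier results of these data known. Named in detail were members with an adjusted or unadjusted p under 0.05, within 250 kb of Gabbr1, the 5 most abundant, the 3 that differed most between WT libraries, and partners and neighbours past the threshold; all others are accounted for. On simulated counts (13176 genes, 200 changed) 32.4%, 63.4% and 91.8% of genes changed 1.5-, 2- and 4-fold were recovered, and 17 of the 140 genes called had not been changed. Pairs of libraries within a group differed beyond sampling noise (chi-square per degree of freedom 8.24 to 13.1). Alternatives were other scalings and filters, DESeq2 1.42.0, limma-voom 3.58.1, sex as a covariate, and each library left out. Null library 1 was the only library without Y-linked counts, so the sex covariate in effect left that library out. Intervals from counts cover counting error only.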

Additional observations from a re-analysis of the deposited data

How the results depend on the processing

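No paired analysis was possible because the labels match no WT library to a null library. The members gave 0 calls in either direction under every scaling, the stricter filter (at least 1 CPM throughout), DESeq2, limma-voom and sex as a covariate. Without a low-count filter 1 member was higher (Notch4) and 1 lower (Atat1), and leaving out 1 library each gave 0 higher and 0 to 1 lower. Over all genes, 289 were higher and 45 lower; without a filter 602 and 155, and with the stricter filter 173 higher. Leaving out 1 library gave 32 to 316 higher and 0 to 51 lower, with both lowest counts without WT library 2; there were 101 higher without WT library 1 and 15 lower without null library 3. Among the neighbours outside the list, 3 were lower without a filter, 1 lower with sex as a covariate, and 0 to 1 lower with 1 library left out. Among the partner genes, 4 were higher (Cbx3, H2afx, Hes1 and the complement gene C3) and 2 lower (Relb and Nfkb2) without a filter. With sex as a covariate 1 was higher (C3), as was 1 with DESeq2 or limma-voom (H2afx). Leaving out 1 null library gave 1 higher (C3 or H2afx) and 0 to 1 lower.

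Fold changes near 0 turned direction without passing in either. Zfp57 was -0.13 in limma-voom and -0.51 to 0.39 with 1 library left out. Tubb5 was -0.00210 and Csnk2b -0.00224 with upper quartile factors, and Csnk2b -0.0161 and Gpank1 -0.0479 with sex as a covariate. With 1 library left out Tubb5 was -0.10 to 0.11, Csnk2b -0.0322 to 0.0761, Gpank1 -0.21 to 0.32, Trim26 -0.28 to 0.0688, Lst1 -0.29 to 0.0351 and Agpat1 -0.35 to 0.12. The cause was not tested. Ranking by CPM without length kept 3 of the 5 most abundant members, and distance between start sites kept 36 of 42 ranks and moved none by more than 1. Fits with a lone WT library take its spread from the null group. Low counts limit Notch4 (12 to 47 per library) and Zfp57 (12 to 43).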
